A study of Mus musculus with 13 samples.

Results

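The BCL2 family and death receptor 5, which set the threshold of mitochondrial and receptor-driven apoptosis, were followed through ER stress. The 10 genes were the BH3-only genes Bbc3 (PUMA), Pmaip1 (NOXA), Bcl2l11 (BIM), Bid and Bad, the effectors Bax and Bak1, the anti-apoptotic genes Mcl1 and Bcl2l1 (BCL-XL), and Tnfrsf10b, the mouse TRAIL receptor that is death receptor 5 (DR5). They were chosen by symbol, and all 10 symbols were found among the 22406 rows of the tables. Ribosome footprint profiling, which sequences the mRNA fragments held by translating ribosomes, had been done on 13 libraries of mouse cells. PERK WT mouse embryonic fibroblasts (MEFs) and PERK -/- MEFs gave 5 libraries each, from untreated cells and from cells given 1 μM thapsigargin (Tg) for 1, 2, 5 or 8 h. NIH3T3 cells, an established mouse fibroblast line, gave 3 libraries, untreated and after 2 or 7 h of 200 nM Tg. Tg blocks the SERCA pump, which empties the calcium store of the ER and causes protein misfolding there, and PERK is the ER kinase that phosphorylates eIF2α. Each condition was 1 library with no replicate, so no test between conditions was possible. NIH3T3 cells got another Tg dose and other times than the MEFs, so their values are set beside those of the MEFs without a comparison.

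In the mitochondrial route, BAX and BAK1 open the outer mitochondrial membrane and release cytochrome c. MCL1 and BCL-XL hold them in check, and BH3-only proteins either occupy the anti-apoptotic proteins or act on BAX and BAK1 directly. DR5 starts the other route, in which a ligand-bound receptor recruits FADD and caspase-8, and BID links this route to mitochondria. Under long ER stress the transcription factor CHOP (Ddit3), which lies downstream of PERK and ATF4, is known to act on Bbc3, Bcl2l11 and Tnfrsf10b.

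The short BH3 segment is the feature that joins the family, and its coding sequence is shown for 8 of the 9 BCL2 family genes to let the members be compared. A core of leucine, any 3 residues, then glycine, alanine or serine, then aspartate was searched in the protein of the principal GENCODE form of each gene (the longest where several were principal). This loose core was present in 33.8% of 21531 mouse proteins, so it does not mark a BH3 segment on its own. Each of the 8 genes held it once, and Tnfrsf10b, which is no BCL2 family member, held it at no place. Capitals mark the 6 codons of the core, and 18 bases are given on each side. The positions are in mm10 (GRCm38), and each stretch lay within a single coding exon. On the plus strand were Bbc3 at chr7:16313755-16313808, Bcl2l11 at chr2:128147132-128147185, Bad at chr19:6950774-6950827 and Mcl1 at chr3:95659418-95659471. On the minus strand were Bid at chr6:120897280-120897333, Bax at chr7:45465988-45466041, Bak1 at chr17:27022522-27022575 and Bcl2l1 at chr2:152829688-152829741.
Bbc3: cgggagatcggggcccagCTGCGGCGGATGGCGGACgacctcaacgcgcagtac
Bcl2l11: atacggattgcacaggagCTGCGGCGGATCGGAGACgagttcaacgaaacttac
Bid: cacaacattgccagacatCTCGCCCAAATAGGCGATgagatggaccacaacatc
Bad: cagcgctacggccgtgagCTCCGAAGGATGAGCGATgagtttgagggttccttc
Bax: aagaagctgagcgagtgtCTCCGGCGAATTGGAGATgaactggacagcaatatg
Bak1: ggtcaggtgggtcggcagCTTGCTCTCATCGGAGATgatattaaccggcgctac
Mcl1: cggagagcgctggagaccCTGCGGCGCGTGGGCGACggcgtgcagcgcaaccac
Bcl2l1: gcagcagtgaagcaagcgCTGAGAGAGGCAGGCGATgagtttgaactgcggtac

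Over the 28 pairs of these stretches, 7 to 15 of the 18 core bases and 17 to 32 of all 54 bases were identical. The closest pair on both counts was Bbc3 with Bcl2l11, with 15 identical core bases and 32 identical bases in all. Bak1 and Bcl2l1 shared the fewest core bases (7), and Bax and Bcl2l1 the fewest of all 54 (17). The coding sequence of Bbc3 was also rich in G and C, at 72.2%, against a median of 52.8% over the expressed MEF genes. Mcl1 had 64.7%, Bad 62.6% and Bax 59.2%, and the other members lay between 52.8% for Tnfrsf10b and 56.3% for Bak1.

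Levels are given in TPM, a share of a library's footprints per coding length, so they can be compared between genes but hold no information on absolute synthesis. Folds are ratios of TPM to the untreated library of the same cells, with values under 4 TPM raised to 4, and a gene was called changed at 2-fold or more. Beside them stands the log2 ratio of expected counts per library total with its 95% interval, which covers counting error only and no difference between cultures. Library totals ran from 2525029 (WT, 2 h) to 14799515 (PERK -/-, 2 h) expected counts. Footprints on Eif2ak3, the gene of PERK, were 14.4 to 33.3 CPM (counts scaled to the library total) in the WT libraries and 7.64 to 19.1 in the PERK -/- libraries, so they were fewer but not absent in the latter. The 6 fibroblast markers summed to between 3245 and 6048 TPM in every library. Not all of them were high in NIH3T3 cells, where Col3a1 was at 0.64 to 1.67 TPM and Pdgfrb at 2.27 to 5.36 TPM. The 6 epithelial, leukocyte and endothelial markers summed to at most 6.49 TPM, with Ptprc and Pecam1 at 0 in 11 of the 13 libraries. Of these, the endothelial Cdh5 was at 3.03 TPM in untreated NIH3T3 cells.

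The effectors and Mcl1 stood at the top and Bbc3 and Bcl2l11 at the bottom in untreated WT MEFs, where the order was Bak1 (131 TPM), Mcl1 (101), Bax (98.9), Tnfrsf10b (50.8), Bcl2l1 (35.2), Bid (30.4), Bad (24.5), Pmaip1 (22.2), Bcl2l11 (8.9) and Bbc3 (5.15). Bak1 lay above 87.5% of the 10432 expressed genes of that library, and Bbc3 above 18.9%. Untreated PERK -/- MEFs had Bak1 (174 TPM) and Bax (163) at the top, then Tnfrsf10b (96) above Mcl1 (89.3), and Bcl2l11 (12.5) and Bbc3 (8.94) at the bottom as well. NIH3T3 cells differed in order, with Bax at 330 TPM, 6.03 times Bak1 (54.6), with Tnfrsf10b (66.7) above Bak1, and with Bid (5.51) below Bcl2l11 (7.11) and Bbc3 (11.9). Pmaip1 had 0 expected counts in all 3 NIH3T3 libraries, where a count of 0 allows up to 0.27, 1.17 and 0.521 CPM, whereas every MEF library held 20 or more counts of it. These limits cover counting error only, and whether the gene's rows could receive footprints in the NIH3T3 table was not tested. The plot of levels by hours of Tg gives all values.

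**Figure D1:**
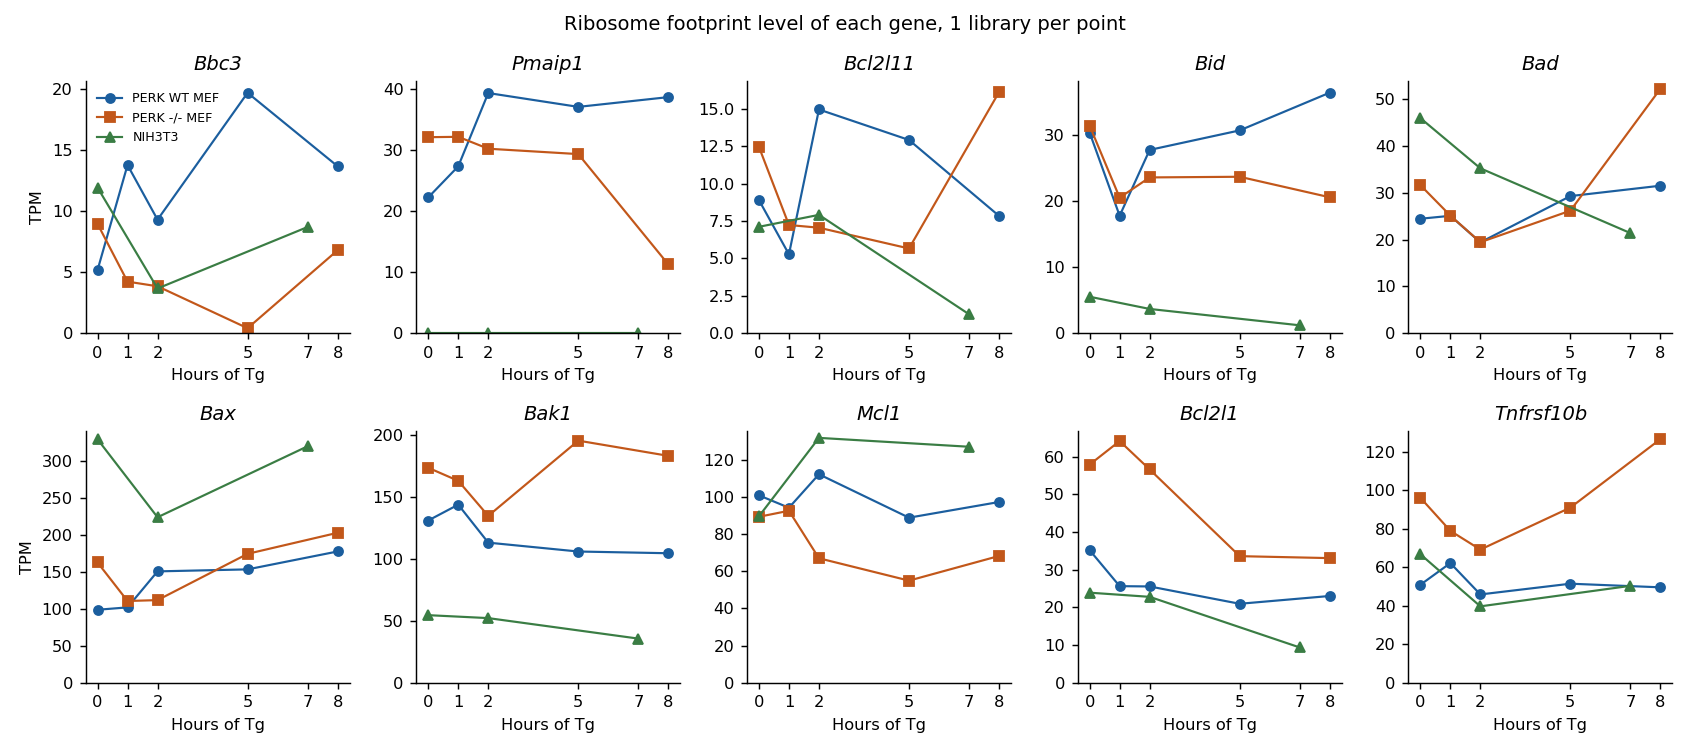
Footprint level (TPM, linear axis from 0) of each gene against hours of Tg in PERK WT MEFs (circles), PERK -/- MEFs (squares) and NIH3T3 cells (triangles), each point 1 library with no replicate. Bbc3 reached 19.7 TPM in WT MEFs and 0.4 in PERK -/- MEFs at 5 h, while Pmaip1 ended at 38.7 and 11.3 TPM at 8 h.

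Few members changed 2-fold in any library. In WT MEFs 1, 0, 1 and 1 of the 10 members were called at 1, 2, 5 and 8 h, each time Bbc3 and higher, where 6.62, 9.66, 9.40 and 10.3% of all expressed genes were called. PERK -/- MEFs had 1, 1, 2 and 1 of 10 members called, all lower, against 4.10, 6.40, 8.03 and 6.01% of all genes. In NIH3T3 cells 1 of the 9 expressed members was called at 2 h and 2 at 7 h, all lower, against 9.52 and 15.1%. A single gene makes up 10% of the list, so these counts do not stand apart from the shares over all genes.

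The counting intervals left out 0 far more often, in members and in all genes alike. In WT MEFs they did so for 3, 3, 6 and 6 of 10 members at 1, 2, 5 and 8 h, and for 51.7, 50.8, 62.0 and 69.4% of all expressed genes. PERK -/- MEFs gave 5, 7, 5 and 7 members, beside 53.7, 61.1, 59.8 and 54.5% of all genes. In NIH3T3 cells they were 4 and 7 of 9 members, beside 53.2 and 72.9%. An interval without 0 is therefore common in these libraries and says only that counting error is smaller than the difference. The median log2 change of the members in TPM was 0.04, 0.01, 0.14 and 0.11 in WT MEFs, -0.31, -0.44, -0.34 and -0.16 in PERK -/- MEFs, and -0.38 and -0.46 in NIH3T3 cells. Over all expressed genes the median lay between -0.13 and 0.04, with its lowest values, -0.13 in NIH3T3 cells and -0.11 in PERK -/- MEFs, at 2 h. By counts per library total these were -0.06 and -0.11. They went to 0 with DESeq2 size factors, which centre the typical gene near 0 by design. The 6 fibroblast markers had medians of -0.97, -1.38, -0.52 and -0.38 in PERK -/- MEFs, with 2, 4, 1 and 0 of them called lower. In WT MEFs, where the members' medians were above 0, the markers had medians of -0.49, -0.28, -0.15 and -0.12, with 0 called. In NIH3T3 cells the 5 expressed markers had a median of -0.3 at 2 h and -0.64 at 7 h, with 1 and 2 called lower. The part of the markers in the members' values was not tested.

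**Figure D2:**
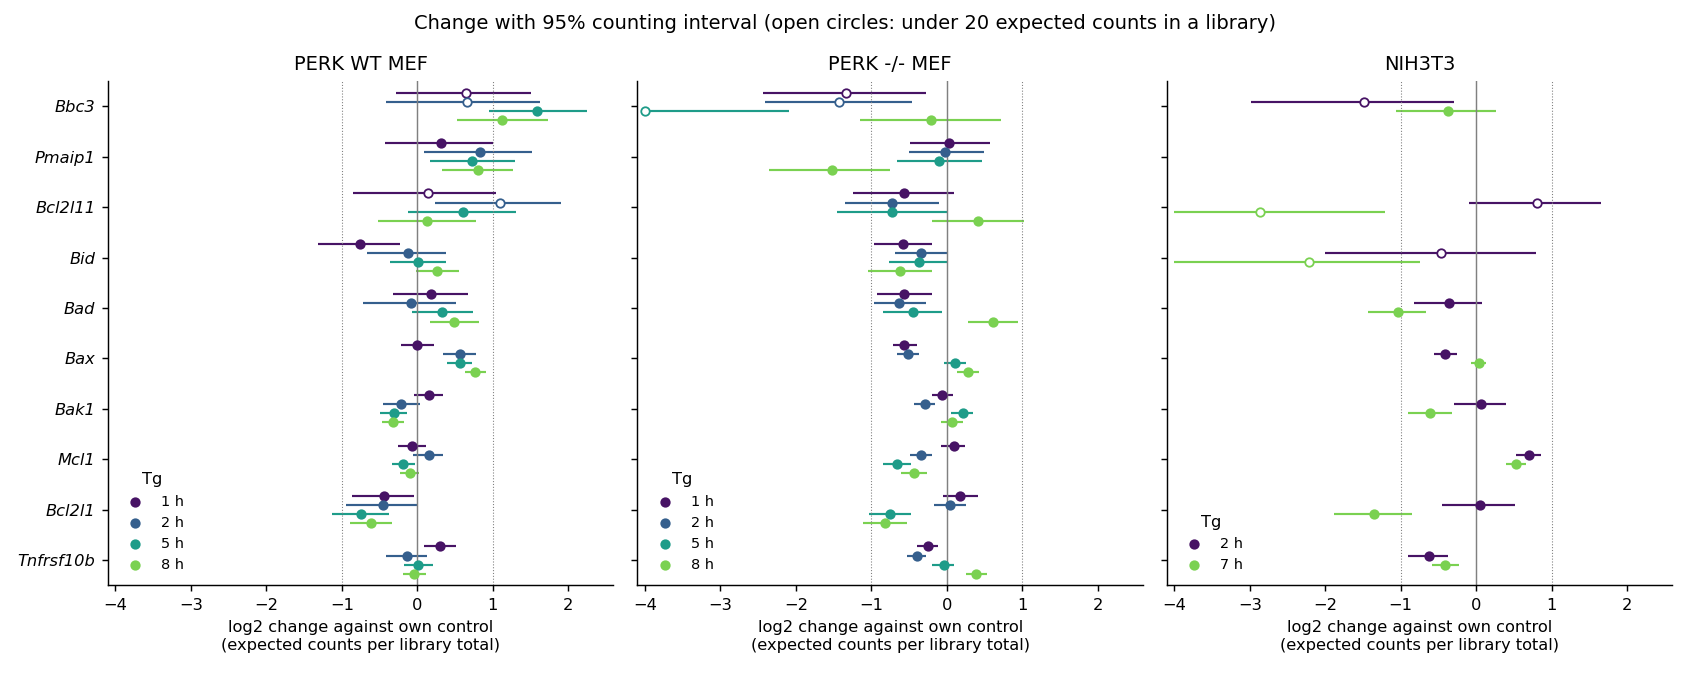
Log2 change of expected counts per library total against the untreated library of the same cells (points) with 95% counting intervals (lines), by gene and hours of Tg; open circles have under 20 expected counts in a library, dotted lines mark 2-fold, values and intervals below -4 are drawn at -4, and Pmaip1 had no counts in NIH3T3 cells. Bbc3 at 5 h lies at 1.59 in WT MEFs, and Pmaip1 at 8 h at -1.52 in PERK -/- MEFs.

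Bbc3, whose protein PUMA binds all anti-apoptotic family members, was called more often than any other member, in 7 of the 10 Tg libraries. It was also the member most often under 20 expected counts in a library, in 6 of its 10 comparisons. Of its calls, only those in WT MEFs at 5 and 8 h had 20 or more counts in both libraries. Its level in WT MEFs was 5.15 TPM untreated and 13.8, 9.28, 19.7 and 13.7 TPM at 1, 2, 5 and 8 h. All 4 Tg libraries lay above the untreated one. This was 3.82-fold at 5 h (51 against 36 expected counts, log2 count change 1.59, interval 0.95 to 2.25) and 2.65-fold at 8 h (73 counts, 1.12, 0.52 to 1.73). At 1 h the ratio was 2.67 but rested on 17 counts, and at 2 h 1.80 on 12 counts, and both intervals held 0. Bbc3 ran the other way in PERK -/- MEFs, from 8.94 TPM untreated to 4.21, 3.83, 0.4 and 6.78 TPM. The 4 Tg libraries all lay below the untreated one, the lowest at 5 h with 1 expected count against 22 (log2 count change -4.71, interval -10.1 to -2.09). The libraries of 1 and 2 h held 13 and 18 counts. At 8 h, with 21 counts, the change was -0.21 with an interval of -1.15 to 0.72. In NIH3T3 cells Bbc3 went from 11.9 to 3.65 TPM at 2 h, with 6 counts, and stood at 8.68 TPM at 7 h, where the log2 count change was -0.38 (interval -1.06 to 0.26).

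In WT MEFs and early in PERK -/- MEFs, GC-rich genes as a group lay on the same side of 0 as Bbc3. Expressed genes with a coding GC content of 65% or more (228 in MEFs) had a median log2 change of 0.28, 0.55, 0.55 and 0.67 in WT MEFs at 1, 2, 5 and 8 h. Genes under 45% (1234) had medians of -0.16, -0.24, -0.3 and -0.34 there. GC-rich genes of PERK -/- MEFs had medians of -0.31 and -0.47 at 1 and 2 h and 0 at 5 and 8 h, and those of NIH3T3 cells -0.04 at 2 h and 0 at 7 h. With a smooth trend on GC content taken out, an alternative added after seeing the data, the Bbc3 values were 1.12, 0.2, 1.28 and 0.66 in WT MEFs on the log2 TPM scale. The 5 h value stayed past 2-fold, and the 8 h value did not. Those of PERK -/- MEFs became -0.75, -0.72, -1.2 and -0.4, of which the one at 5 h was past 2-fold. In NIH3T3 cells they were -1.5 and -0.37, beside -1.57 and -0.46 as deposited. The trend fitted at the GC content of Bbc3 was 0.04 in PERK -/- MEFs at 5 h and -0.08 in NIH3T3 cells at 2 h. Its removal could therefore change little there, and both Bbc3 levels lay under the floor of 4 TPM. The part of base composition in the Bbc3 values was not tested further.

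**Figure D3:**
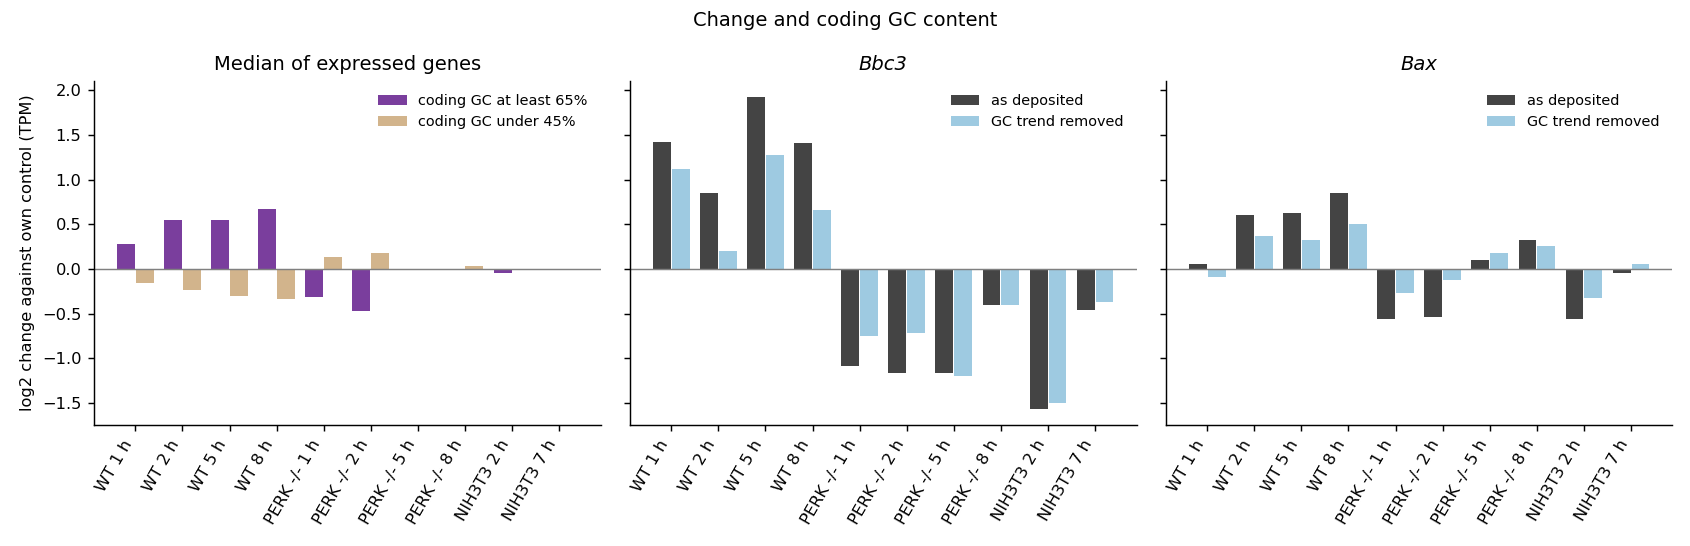
Log2 change in TPM against the untreated library for the median of expressed genes with coding GC content of at least 65% or under 45% (left), for Bbc3 (middle) and for Bax (right), the last 2 with and without removal of a lowess trend on GC content, in each of the 10 Tg libraries. Medians of GC-rich genes reach 0.67 in WT MEFs at 8 h and -0.47 in PERK -/- MEFs at 2 h, and Bbc3 at WT 8 h goes from 1.41 to 0.66.

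Pmaip1, whose product NOXA mainly binds MCL1, differed most between the genotypes at 8 h. In WT MEFs it was at 22.2 TPM untreated and at 27.3, 39.4, 37.1 and 38.7 TPM at 1, 2, 5 and 8 h. The last 3 libraries were alike, at 1.77-, 1.67- and 1.74-fold of the untreated one, and neighbouring times from 2 h on did not differ beyond counting error (-0.09, interval -0.82 to 0.67, from 2 to 5 h and 0.06, -0.44 to 0.58, from 5 to 8 h). None of them reached 2-fold. PERK -/- MEFs had Pmaip1 at 32.1, 32.2, 30.2 and 29.4 TPM from untreated to 5 h and then at 11.3 TPM at 8 h. That last library stood apart, at 0.351-fold with 20 against 52 expected counts (log2 count change -1.52, interval -2.35 to -0.75). The coding sequence of Pmaip1 has 54.1% of G and C, close to the median. Genes with 65% or more and genes under 45% had medians of 0 and 0.03 in PERK -/- MEFs at 8 h. Taking out the GC trend could therefore change its value little (-1.59).

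Bcl2l11, whose product BIM binds the anti-apoptotic proteins and activates BAX, was weakly covered. In WT MEFs it was at 8.9 TPM untreated and at 5.27, 15, 12.9 and 7.84 TPM, and in PERK -/- MEFs at 12.5 TPM untreated and at 7.23, 7.05, 5.66 and 16.1 TPM. No WT library passed 2-fold in TPM, although the library of 2 h did in counts (log2 count change 1.1, interval 0.23 to 1.91, on 19 counts). The PERK -/- library of 5 h passed it in TPM (0.454-fold), although its count change of -0.72 had an interval of -1.46 to 0.01. TPM and counts parted for this gene and for Bbc3. The number of counts behind 1 TPM, relative to the library, varied 1.83 times between libraries for Bcl2l11 and 1.94 times for Bbc3, but at most 1.195 times for the other members. At 1 h in WT MEFs Bcl2l11 gave a log2 change of -0.76 in TPM and of 0.14 in counts. In NIH3T3 cells it had 42, 17 and 3 counts.

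Bid and Bad, which caspase-8 cleavage and phosphorylation respectively control in cells, stayed under 2-fold in all MEF libraries. Bid was at 30.4 TPM in untreated WT MEFs and at 17.8, 27.8, 30.7 and 36.5 TPM after Tg, so only the 1 h library lay clearly below (log2 count change -0.76, interval -1.32 to -0.23). Its level in PERK -/- MEFs was 31.4 TPM untreated and 20.5 to 23.7 TPM in all 4 Tg libraries. Bad was at 24.5 TPM in untreated WT MEFs and between 19.4 and 31.5 after Tg, and in PERK -/- MEFs it went from 31.7 TPM to 25.1, 19.4 and 26.2 and then to 52.3 TPM at 8 h (1.65-fold, 0.61, interval 0.28 to 0.95). In NIH3T3 cells Bad was at 46, 35.3 and 21.4 TPM, which made it one of the 2 members called at 7 h (0.465-fold, -1.04, interval -1.44 to -0.66). Bid had 36, 6 and 4 counts there.

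The effectors parted in WT MEFs. Bax was at 98.9 TPM untreated and at 102, 151, 154 and 178 TPM at 1, 2, 5 and 8 h. The untreated and 1 h libraries were level, and the 3 later ones stood above them, at 1.80-fold at 8 h (720 and 1148 expected counts, log2 count change 0.77, interval 0.63 to 0.91). Bak1 was at 131 TPM untreated and at 144, 113, 106 and 105 TPM, 0.798-fold at 8 h (-0.32, interval -0.47 to -0.18). PERK -/- MEFs had lower Bax early, at 163 TPM untreated and 111 and 112 TPM at 1 and 2 h, and 175 and 203 TPM at 5 and 8 h. Bak1 stayed between 135 and 196 TPM there. In NIH3T3 cells Bax was at 330, 224 and 320 TPM and Bak1 at 54.6, 52.3 and 35.7 TPM.

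The counts of Bax to those of Bak1 within a library went in WT MEFs from 0.785 untreated to 0.71, 1.33, 1.43 and 1.68. The log2 change of this ratio was 0.76 (interval 0.44 to 1.09) at 2 h, 0.87 (0.63 to 1.11) at 5 h and 1.09 (0.9 to 1.29) at 8 h, and it does not depend on how the libraries are scaled. Its change in PERK -/- MEFs was -0.5 (-0.71 to -0.29) at 1 h and 0.21 (0 to 0.42) at 8 h, and in NIH3T3 cells -0.46 (-0.82 to -0.1) at 2 h and 0.64 (0.34 to 0.94) at 7 h. Bax is slightly richer in GC than Bak1, and with the GC trend taken out the log2 TPM change of Bax was 0.37, 0.33 and 0.5 and that of Bak1 -0.38, -0.51 and -0.57 at 2, 5 and 8 h in WT MEFs. The directions of both were as before. The early log2 changes of Bax in PERK -/- MEFs went from -0.56 to -0.27 at 1 h and from -0.54 to -0.12 at 2 h without the trend.

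Of the anti-apoptotic genes, Mcl1 was level in WT MEFs, and Bcl2l1 was lower in WT MEFs at all 4 times and in PERK -/- MEFs at 5 and 8 h. Mcl1, whose protein is short-lived, was at 101 TPM in untreated WT MEFs and at 94.2, 112, 88.8 and 97.3 TPM after Tg, a change of -0.1 at 8 h with an interval of -0.23 to 0.02. Its PERK -/- levels were 89.3 and 92.6 TPM untreated and at 1 h, and 67, 55 and 68.2 TPM at 2, 5 and 8 h, with the lowest library at 0.615-fold (-0.66, interval -0.84 to -0.48). NIH3T3 cells had 89.6 TPM untreated and 132 and 127 TPM after Tg, 1.47- and 1.42-fold, and Mcl1 was the one member whose interval lay above 0 there, at both times. Mcl1 has a GC-rich coding sequence, and without the GC trend its change in WT MEFs was -0.34, -0.27, -0.66 and -0.6, below its untreated level at all 4 times.

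Bcl2l1 was at 35.2 TPM in untreated WT MEFs and at 25.7, 25.6, 21 and 23 TPM after Tg. All 4 Tg libraries lay below the untreated one. PERK -/- MEFs held it at 57.9, 64.2 and 56.6 TPM up to 2 h and at 33.6 and 33.1 TPM at 5 and 8 h, and its libraries of 2 and 5 h differed by -0.79 in log2 counts (interval -1.04 to -0.55). At 5 h both genotypes had the same log2 count change, -0.75. In NIH3T3 cells Bcl2l1 was at 23.9 and 22.8 TPM and then at 9.38 TPM at 7 h (0.392-fold, -1.35, interval -1.89 to -0.85). The counts of Mcl1 to those of Bcl2l1 within a library changed at the last time by 0.51 (interval 0.21 to 0.81) in WT MEFs, 0.38 (0.05 to 0.72) in PERK -/- MEFs and 1.88 (1.36 to 2.39) in NIH3T3 cells.

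**Figure D4:**
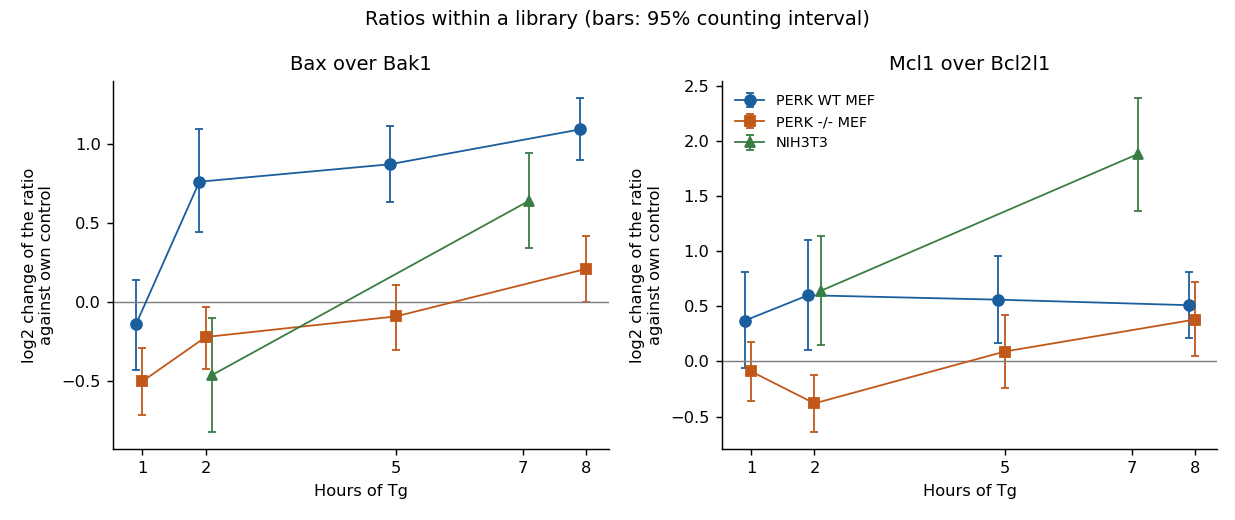
Log2 change of the ratio of Bax to Bak1 counts (left) and of Mcl1 to Bcl2l1 counts (right) within a library against the untreated library of the same cells, by hours of Tg, with 95% counting intervals as bars and 1 library per point. Bax over Bak1 reaches 1.09 in WT MEFs at 8 h, and Mcl1 over Bcl2l1 reaches 1.88 in NIH3T3 cells at 7 h.

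Tnfrsf10b, on the plus strand of mm10 at chr14:69767472-69784411, was well covered and changed little in WT MEFs. It was at 50.8 TPM untreated and at 62.1, 45.8, 51.4 and 49.5 TPM at 1, 2, 5 and 8 h. The 8 h library, with 634 against 695 expected counts, gave a log2 count change of -0.04 and an interval of -0.19 to 0.12. In that library Ddit3 was 42.0-fold above its untreated level, at 580 against 13.8 TPM, and Atf4 16.7-fold. PERK -/- MEFs had Tnfrsf10b at 96 TPM untreated and at 78.8, 69.1, 90.9 and 126 TPM, with the 8 h library highest (1.32-fold, 0.39, interval 0.25 to 0.53). In NIH3T3 cells it was at 66.7, 39.7 and 50.3 TPM, below the untreated level at both times.

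The genotypes already differed before Tg, although no member reached 2-fold between the untreated libraries, where 8.00% of all expressed genes did. Tnfrsf10b was 1.89 times, Bax 1.65 times and Bcl2l1 1.65 times as high in untreated PERK -/- as in untreated WT MEFs. Their log2 count differences were 0.91 (interval 0.76 to 1.07), 0.69 (0.54 to 0.85) and 0.71 (0.46 to 0.96). Mcl1 (0.886-fold) was the one member with a lower level in PERK -/- MEFs, and Bid was level (1.04-fold). Each untreated library is shared by the 4 changes of its genotype, so its error enters all of them.

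Set against each other at the same hour, the changes of several members lay higher in WT than in PERK -/- MEFs. These were BH3-only genes, Bax and Mcl1, at some or all times. For Bbc3 the difference in log2 TPM change was 2.5, 2.01, 3.09 and 1.81 in order of time, and only at 8 h did all 4 libraries hold 20 counts (difference in counts 1.33, interval 0.29 to 2.37). For Pmaip1 it was 0.28, 0.84, 0.83 and 2.32 in counts, the last with an interval of 1.45 to 3.19. For Bax it was 0.56, 1.07, 0.45 and 0.49, all with intervals above 0. In TPM the differences of Bax were 0.6, 1.15, 0.54 and 0.53, and without the GC trend 0.17, 0.5, 0.15 and 0.24. Bcl2l11 at 5 h differed by 1.32 (0.36 to 2.29), and Bid at 8 h by 0.88 (0.39 to 1.38). Bcl2l11 had too few counts at 1 and 2 h, and at 8 h it differed by -0.29 (-1.13 to 0.56). Bid differed by -0.17, 0.22 and 0.39 at 1, 2 and 5 h, with intervals that held 0. Bad lay higher in WT MEFs at 1 h (0.74, interval 0.15 to 1.34), 2 h (0.55, -0.13 to 1.22) and 5 h (0.78, 0.24 to 1.32), but not at 8 h (-0.12, -0.57 to 0.34). In TPM the differences of Bad were 0.37, 0.37, 0.53 and -0.36, and with the GC trend taken out -0.13, -0.41, 0.07 and -0.78. Its higher values in WT MEFs were smaller in TPM than in counts, and without the trend they were not seen, apart from 0.07 at 5 h. Mcl1, an anti-apoptotic gene, differed by -0.16 (-0.39 to 0.07) at 1 h and then by 0.48 (0.24 to 0.72), 0.48 (0.24 to 0.71) and 0.33 (0.12 to 0.54). In TPM the differences of Mcl1 were -0.15, 0.57, 0.52 and 0.34, and without the GC trend -0.69, -0.29, 0.01 and -0.16. The higher values of Mcl1 in WT MEFs were thus not seen without the trend.

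Bak1, Bcl2l1 and Tnfrsf10b lay lower in WT than in PERK -/- MEFs at some times. Bak1 differed by -0.51 (interval -0.74 to -0.29) at 5 h and -0.39 (-0.6 to -0.19) at 8 h. Bcl2l1 differed by -0.62 (-1.08 to -0.17) at 1 h and by 0 (-0.45 to 0.45) at 5 h. Tnfrsf10b crossed from 0.56 (0.31 to 0.81) at 1 h to -0.42 (-0.63 to -0.22) at 8 h. With 1 library per condition a difference between genotypes and one between cultures cannot be told apart.

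**Figure D5:**
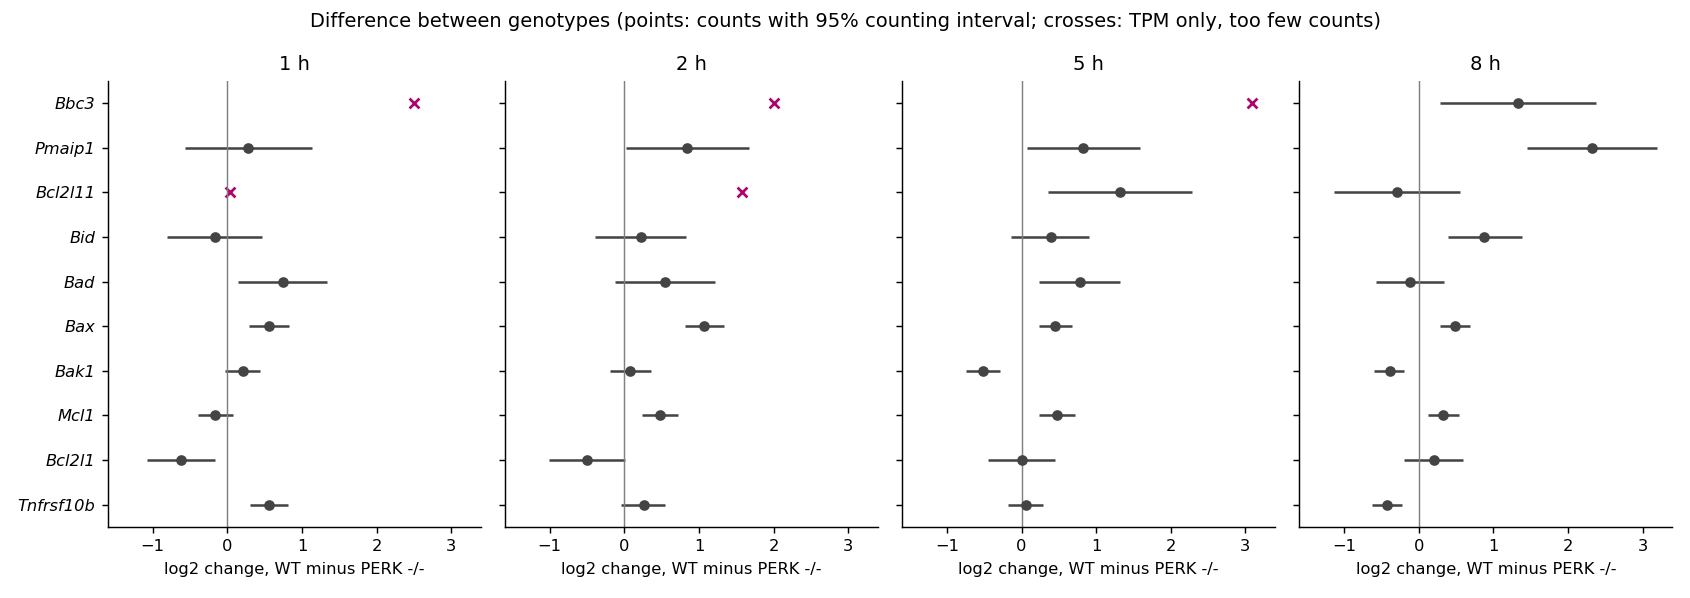
Log2 change after Tg in PERK WT MEFs minus that in PERK -/- MEFs at 1, 2, 5 and 8 h, from expected counts per library total with 95% counting intervals (points and lines), or from TPM alone where a library held under 20 counts (crosses). Pmaip1 at 8 h lies at 2.32, and Tnfrsf10b moves from 0.56 at 1 h to -0.42 at 8 h.

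Bbc3, Pmaip1, Bcl2l11 and Bid had too few counts in some libraries to give a usable change. Of the 100 comparisons of a member with its untreated level, 14 had under 20 expected counts in a library. They were 6 of Bbc3, 4 of Bcl2l11, 2 of Pmaip1 and 2 of Bid, and 7 of them were in NIH3T3 cells. In WT MEFs Bbc3 and Bcl2l11 were below the limit at 1 and 2 h, the libraries with the lowest totals, and in PERK -/- MEFs Bbc3 alone was, at 1, 2 and 5 h. Bad, Bax, Bak1, Mcl1, Bcl2l1 and Tnfrsf10b were above it in all libraries.

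Few other genes of both routes were called in WT MEFs, apart from the transcription factors. Over all expressed genes, the share called in either direction ran from 4.10 to 15.1% by library, as given above. Of 14 other BCL2 family genes only 6 were expressed, and 1 was called in WT MEFs at 2 h and none at the other times. Bcl2l2 (BCL-w), another anti-apoptotic gene, was 3.15-fold at 7 h in NIH3T3 cells, and in PERK -/- MEFs Bok, a BAX-like effector, was 0.418-fold at 5 h and the mitophagy receptor Bnip3 2.63-fold at 8 h. Of the death receptor route 9 of 11 genes were expressed, with 1 higher in WT MEFs at 1 h and 1 lower at each later time. The decoy TRAIL receptor Tnfrsf22 was 0.323-fold in WT MEFs at 5 h, the other decoy receptor Tnfrsf23 2.22-fold in PERK -/- MEFs at 8 h. Cflar, which codes the caspase-8 inhibitor FLIP, was 5.69-fold at 2 h and Casp8 0.419-fold at 7 h in NIH3T3 cells.

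All 10 genes of the apoptosome and caspase list were expressed, and none was called in WT MEFs. Casp2 was 0.477-fold in PERK -/- MEFs at 2 h, with a log2 count change of -0.54, and in NIH3T3 cells 1 gene of the list was lower at 7 h. Of the 5 inhibitor of apoptosis genes, Birc3 was 2.10-fold in WT MEFs at 2 h and Birc2 3.05-fold in NIH3T3 cells at 7 h. Of the 6 transcription factors that act on these genes, 2, 3, 4 and 4 were called higher in WT MEFs at 1, 2, 5 and 8 h. Over all 10432 expressed genes, 452, 590, 611 and 673 were called higher there. The list was chosen with earlier results of these data known, so its counts are a description only. In PERK -/- MEFs 1 was higher and 2 lower at 2 h and 1 lower at 5 h, and in NIH3T3 cells 3 and 2 were higher. Cebpb was 5.74-fold in WT MEFs at 5 h, and Jun, an AP-1 subunit, 0.316-fold in PERK -/- MEFs at 5 h.

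Bbc3 was the one member called in more than 1 WT library with enough counts, and among 2393 genes those with the most similar pattern over the 10 Tg libraries were Foxred1, Ccs and Man2c1 (Pearson r 0.97, 0.97 and 0.96 of the log2 TPM changes). Their coding GC content was 51.9, 57.8 and 58.1%. Of the 10 Bbc3 changes 6 had under 20 expected counts in a library, and these genes are the highest of all those searched. The 10 changes also share 3 untreated libraries, so these values are a description only. Promoter windows of 250 bases before to 50 after a RefSeq start site were on hand for 8 members. None of them held TGATGNAA, the core of the C/EBP-ATF element, or the cAMP response element TGACGTCA on either strand, where 3.97 and 1.79% of 32851 mouse promoters did, and this covers no more than these letters in these windows.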

How the data were processed

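Ribosome footprints of the 13 libraries had been sequenced, and per the study's methods the authors kept footprints of 22 to 34 nt, filtered rRNA and tRNA reads with STAR, aligned the remainder with Bowtie2 to mm10 RefSeq coding sequences from which 30 nt had been clipped on either side, dropped transcripts shorter than 100 nt, and ran RSEM. Versions were not given in the sources used here. The authors deposited expected counts per gene as whole numbers, without scaling between libraries, and the TPM values were scaled by RSEM within each library, as deposited.

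The members and gene lists were chosen with earlier results of these data known. A gene counted as expressed when its TPM averaged 2 or more over the MEF libraries (10432 genes) or the NIH3T3 libraries (10117). A floor of 4 TPM was set, and changes were taken against the untreated library of the same cells. Ratios of expected counts per library total had exact conditional (Clopper-Pearson) 95% intervals, and differences of changes and changes of ratios, the latter added after seeing the data, had normal intervals on the log scale. Tested on simulated Poisson counts, the exact intervals held the true value for 95.4 to 96.1% of genes over the 10 comparisons. Such counts hold counting error only, so this checks the calculation and not the spread between cultures. Named genes were the 10 members, up to 4 genes of largest change in each context list with at least 2-fold change and 20 counts in both libraries, and the 3 genes most like a member called in 2 or more WT libraries. Alternatives were a floor of 1 TPM, log2(TPM + 1), an average of 5 TPM or more, no filter, counts per library total, TMM factors (edgeR 4.0.16), DESeq2 1.42.0 size factors, thinning to the smallest library, folds of 1.5 and 3, count minimums of 10 and 50, and, added after seeing the data, removal of a lowess trend (fraction 0.3) on coding GC content. Coding sequences and GC content were built from GENCODE on GRCm38, which is mm10, for 95.9% of expressed MEF genes, and promoter windows came from RefSeq. Statistics used Python 3.11.15, scipy 1.17.1 and R 4.3.3. A result on 1 gene of the context lists is not reported here.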

Additional observations from a re-analysis of the deposited data

Results flagged for a closer look

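The change of Bbc3 ran in opposite directions in the genotypes, higher in all 4 Tg libraries of WT MEFs and lower in all 4 of PERK -/- MEFs. The difference of the log2 TPM changes, WT minus PERK -/-, was 2.5, 2.01, 3.09 and 1.81 in order of time (1, 2, 5 and 8 h). With 1 library per condition this difference was not tested, and the 4 values of a genotype share its untreated library. Of these 8 changes 5 had under 20 expected counts in a library (17 and 12 counts in WT MEFs at 1 and 2 h, 13, 18 and 1 in PERK -/- MEFs at 1, 2 and 5 h), so that the 8 h difference alone rested on enough counts. The counting intervals of WT MEFs at 1 and 2 h and of PERK -/- MEFs at 8 h held 0. Without the trend on GC content the differences were 1.87, 0.92, 2.48 and 1.06.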

How the results depend on the processing

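No change of a member reversed a call. The number of members called at 2-fold moved as follows. With counts per library total, TMM factors or DESeq2 size factors it was 0 in WT MEFs at 1 h, 1 in WT MEFs at 2 h and 1 in PERK -/- MEFs at 5 h. Counts per library total, a floor of 1 and the pseudocount each gave 4 in NIH3T3 cells at 7 h, and the pseudocount gave 0 in PERK -/- MEFs at 1 h. Thinning gave 0 in WT MEFs at 1 h, 2 at 5 h and 2 in PERK -/- MEFs at 1 h. Removal of the GC trend gave 0 in WT MEFs at 8 h and in PERK -/- MEFs at 1 and 2 h. A threshold of 1.5-fold gave 3, 4, 4 and 4 members in WT MEFs, 3, 3, 4 and 4 in PERK -/- MEFs, and 2 and 4 in NIH3T3 cells. A 3-fold threshold gave 0 in all comparisons but WT MEFs at 5 h, where it gave 1. Shares of all expressed genes at 1.5- and 3-fold were not computed, so these counts stand without a background. A minimum of 10 counts left 7 comparisons with too few counts, and one of 50 left 34. The settings on counts change the measure from TPM to counts as well as the library scale. Bbc3 in WT MEFs at 1 h was at 1.42 in TPM. With counts per library total, TMM factors and DESeq2 size factors it was at 0.64, 0.61 and 0.62. What moved the calls was not tested.

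Of 880 single changes under all alternatives 826 stayed within the counting error of the reported value and 54 moved, and of 280 differences between genotypes 260 stayed and 20 moved. The average of 5 TPM or more and the lack of a filter choose genes and leave their values as they are. Their entries among the 880 therefore stayed by construction. A wide interval also lets a value stay, as for Bbc3 in WT MEFs at 1 h (1.42, and 0.61 with TMM factors). The sign changed in 11 of the comparisons of a member under another scaling, of which Bcl2l11 in WT MEFs at 1 h was the one whose reported value was over 0.2 in size. No paired analysis was possible because each condition is 1 library with no replicate number, and hours of Tg are not replicates. The depth of the WT libraries at 1 and 2 h limits Bbc3 and Bcl2l11.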

Other observations

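Bcl2, the founding anti-apoptotic gene, was weakly covered. It had 29 expected counts in untreated WT MEFs and 10, 5, 9 and 14 after Tg, and 36 in untreated PERK -/- MEFs and 33, 28, 1 and 16 after Tg. It was chosen after its values were seen.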
